A study of Homo sapiens with 8 samples.

Results

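The 10 genes of cytosolic DNA sensing and interferon induction followed here were chosen by their role in that pathway, with earlier results of these data known. They were CGAS, STING1, IFI16, AIM2, ZBP1, TBK1, IRF3, IRF5, TREX1 and IFNB1. Of these 10 genes, 9 had a probe that could be named and 7 were well above background on at least 1 array, against 15805 of 20294 genes named on the array. TREX1, the exonuclease that degrades cytosolic DNA, was not analysed here because no probe could be matched to it. RNA was taken from MCF10A, a non-tumour human breast epithelial cell line, labelled p53+/+ or p53-/-. Cells of each genotype were untreated (0 h) or were collected 12, 24 or 48 h after doxorubicin (adriamycin, ADR), a drug that breaks DNA, given at 0.5 µg/ml for 2 h per the labels. The study's methods name a higher dose, and the labels' dose is given here. Each of the 8 conditions was 1 single-colour array, so no change had a replicate check, and the labels do not say how many clones the p53-/- line represents.

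DNA in the cytosol is bound by cGAS, which makes the messenger cGAMP. STING binds cGAMP and recruits the kinase TBK1, which phosphorylates IRF3 so that it enters the nucleus and switches on IFNB1, the gene of interferon beta. AIM2 and IFI16 are DNA-binding proteins of the same PYHIN family, and AIM2 builds an inflammasome. In epithelial cells the pathway is known for its response to DNA that has leaked from damaged nuclei.

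The 3 promoters below are shown because they belong to the output gene of the pathway, to the member that differed most between treated genotypes by limma and to a sensor, and because each holds letters typical of interferon-response elements. Each is the 250 bases before an annotated start (RefSeq, GRCh38.p14), written 5′ to 3′ on the gene's strand. Capitals mark AANNGAAA, a core of interferon-response elements, or GGGA, any 2 bases and TTCC, an NF-kB core, on either strand.
IFNB1, chr9:21077943-21078192, minus strand: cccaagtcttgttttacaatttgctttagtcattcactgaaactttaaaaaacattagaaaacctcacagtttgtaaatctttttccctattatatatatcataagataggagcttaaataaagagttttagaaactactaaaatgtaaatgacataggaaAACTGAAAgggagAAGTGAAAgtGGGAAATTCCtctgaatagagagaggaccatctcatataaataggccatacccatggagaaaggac
IRF5, chr7:128940420-128940669, plus strand, 1 of its 4 listed starts: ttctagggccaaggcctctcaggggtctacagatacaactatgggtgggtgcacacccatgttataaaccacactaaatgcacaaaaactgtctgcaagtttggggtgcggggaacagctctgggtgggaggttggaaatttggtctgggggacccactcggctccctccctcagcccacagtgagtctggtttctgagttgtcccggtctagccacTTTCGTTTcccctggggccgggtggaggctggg
AIM2, chr1:159076767-159077016, minus strand: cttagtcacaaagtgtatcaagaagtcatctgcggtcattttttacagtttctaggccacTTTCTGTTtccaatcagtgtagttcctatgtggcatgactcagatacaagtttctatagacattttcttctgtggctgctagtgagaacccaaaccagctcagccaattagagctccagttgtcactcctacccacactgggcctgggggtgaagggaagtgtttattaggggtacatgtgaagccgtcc
The IFNB1 window held 2 matches of AANNGAAA and 1 of the NF-kB core. The IRF5 and AIM2 windows held 1 match of AANNGAAA each. RefSeq windows were at hand for 6 of the 10 members (IFI16, AIM2, TREX1, IRF5, IFNB1 and TBK1), 10 windows in all, of which 5 held AANNGAAA and 5 did not, the other 3 of IRF5 among the latter. AANNGAAA was found in 20.3% and the NF-kB core in 1.4% of 35116 RefSeq promoter windows of that length. Those 10 windows held no p53 half-site, which 5.57% of all windows held. The array does not tell which IRF5 start was used, and a match of letters is not a site.

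Values are log2 levels, the log2 signal of a gene's probe minus the log2 of that array's 75th percentile, and differences between levels are log2 changes. CDKN1A, the p53 target that encodes the cell-cycle inhibitor p21, read −2.97, −0.96, −0.64 and −0.48 at 0, 12, 24 and 48 h in p53-/-. The array labelled p53+/+ 0 h gave −1.14, and the treated p53+/+ arrays gave 2.54, 2.63 and 2.70. The treated p53+/+ arrays lay above all others, while the array labelled p53+/+ 0 h lay within the range of the p53-/- arrays. Its genotype is given here as labelled, and every change drawn from it below depends on that label. The comparison of treated p53+/+ with treated p53-/- arrays uses neither 0 h array.

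The arrays lay on 1 slide with the genotypes in separate columns, and slide position cannot be told apart from genotype. Between 49.78% and 62.9% of probes per array were well above background and the 75th percentile of the signal ranged from 661 to 1199. Of 10 spike-in controls, 6 were well above background on 7 arrays and 0 on the p53+/+ 48 h array. Of 12 basal epithelial markers, 11 or 12 were well above background on every array. Of 8 fibroblast and endothelial markers, 6 or 7 were well above background on p53-/- arrays, 5 on the array labelled p53+/+ 0 h and 2 or 3 on treated p53+/+ arrays. Their summed log2 level was 5.72 to 6.08 in p53-/-, 5.78 on the array labelled p53+/+ 0 h and 2.17 to 2.44 in treated p53+/+, and their part in the results was not tested. Of 9 leukocyte markers, 4 or 5 were well above background on every array, while MS4A1 and NKG7 were on none.

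STING1 and IRF5 were at least 2-fold higher than on the array labelled p53+/+ 0 h at all 3 times, which is 2 of 7 members against 9.53% of 15805 genes. In p53-/- CGAS was at least 2-fold higher than at 0 h at all 3 times, 1 of the 6 members well above background on all 4 p53-/- arrays, against 2.16% of 13108 such genes. By measured signal AIM2 was so too, 2 of 7 against 3.21%, but it was not well above background at p53-/- 0 h and did not meet that size as a bound. No member was at least 2-fold lower at all 3 times in either genotype, against 6.39% of genes in p53+/+ and 2.04% in p53-/-. Between treated genotypes only IRF5 was at least 2-fold higher in p53+/+ at all 3 times, against 6.76% of genes, and 0 of 7 were lower, against 5.92%. Without scaling IRF5 missed that size at 48 h, with a log2 difference of 0.87. Measured from p53-/- 0 h in place of the array labelled p53+/+ 0 h, 3 of 7 members (CGAS, STING1 and IRF5) were at least 2-fold higher in p53+/+ at all 3 times, against 9.55% of genes. In a culture, more cells with the RNA and more RNA per cell cannot be told apart.

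**Figure D1:**
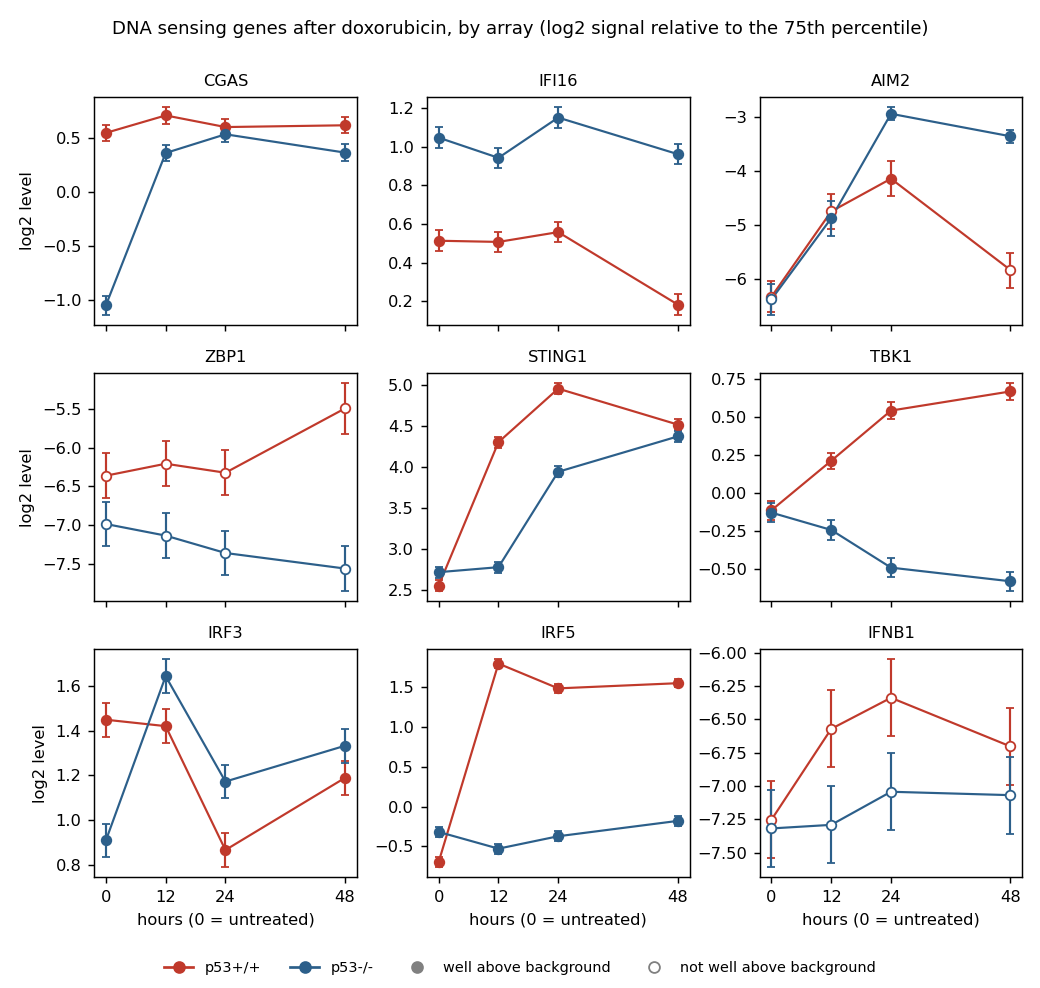
Log2 level of each measured member (y axis, own scale per panel) on the 8 arrays against hours after doxorubicin (x axis, 0 = untreated), by labelled genotype, 1 point per array, open where not well above background, with bars of 1 technical SD. IRF5 lay between 1.48 and 1.79 on the 3 treated p53+/+ arrays and between −0.69 and −0.18 on all other arrays.

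CGAS, the sensor that makes cGAMP, had a log2 level of −1.05 at p53-/- 0 h, then 0.36, 0.54 and 0.37 at 12, 24 and 48 h. The array labelled p53+/+ 0 h gave 0.55, and the treated p53+/+ arrays gave 0.71, 0.61 and 0.62. The p53-/- 0 h array alone was low, and the other 7 arrays lay within 0.36 to 0.71. The change in p53-/- was 2.66-, 3.00- and 2.67-fold, with a technical SD of a log2 change of 0.12. The arrays at 0 h differed by 3.03-fold, with p53-/- lower, so the change in p53-/- rested on that 1 array. Between treated genotypes the log2 difference was 0.22 (SE 0.17, limma, 3 times against 3, adjusted p = 0.397), and without scaling it was −0.38. The interaction of genotype and treatment was −1.37 (SE 0.33, limma, adjusted p = 0.106), and it passed without scaling (adjusted p = 0.0356) and with normexp correction (adjusted p = 0.0419).

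STING1, the adaptor that cGAMP binds, read 2.71, 2.77, 3.94 and 4.37 at 0, 12, 24 and 48 h in p53-/-. The array labelled p53+/+ 0 h gave 2.55, and the treated p53+/+ arrays gave 4.30, 4.95 and 4.51. Levels were high at 12 h in p53+/+ and low at 12 h in p53-/-, and treated groups overlapped, since p53-/- at 48 h lay above p53+/+ at 12 h. The p53+/+ change was 3.36-, 5.28- and 3.90-fold and the p53-/- change 1.04-, 2.34- and 3.15-fold. Treated p53+/+ minus treated p53-/- was 1.52, 1.01 and 0.14 on the log2 scale at 12, 24 and 48 h. The difference at 48 h turned to −0.71 without scaling. Over the 3 times it was 0.89 (SE 0.43), which limma did not call (adjusted p = 0.195).

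IFI16, a nuclear and cytosolic DNA sensor, read 1.05, 0.94, 1.15 and 0.96 in p53-/- at the 4 times. In p53+/+ the array labelled 0 h gave 0.51, and the treated arrays gave 0.51, 0.56 and 0.18. All p53+/+ levels lay below all p53-/- levels, including the pair at 0 h. The treated difference was −0.44, −0.59 and −0.78 at the 3 times, and −0.60 over them (SE 0.19, limma, adjusted p = 0.0749). Over 13 alternatives the adjusted p was 0.0140 to 0.320 and was under the threshold in 5.

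AIM2, the inflammasome sensor, read −6.38, −4.88, −2.94 and −3.35 in p53-/-, well above background at 12, 24 and 48 h. The array labelled p53+/+ 0 h gave −6.33, and the treated p53+/+ arrays gave −4.75, −4.14 and −5.84, well above background at 24 h. Levels were highest at p53-/- 24 and 48 h, and the groups overlapped at 12 h. Since p53-/- 0 h was not well above background, the p53-/- change is a bound, at least 1.29-, 4.95- and 3.70-fold, which passes the 2-fold size at 24 and 48 h. At 24 h, where both were well above background, p53+/+ was 2.31-fold lower than p53-/-, and at 48 h at least 2.41-fold lower. With normexp background correction these log2 differences were −0.39 and −0.39, the limma difference was −0.14, and the p53-/- log2 changes were 0.19, 1.18 and 0.89, so the 2-fold size was then met only by the p53-/- change at 24 h. Limma gave a difference of −1.19 over the treated arrays (SE 0.62, adjusted p = 0.228). ZBP1, a sensor of Z-form nucleic acids, was not well above background on any array, with measured levels of −7.56 to −5.49.

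TBK1, the kinase that STING recruits, read −0.13, −0.24, −0.49 and −0.58 in p53-/-. Treated p53+/+ arrays followed the −0.11 of the array labelled p53+/+ 0 h with 0.21, 0.54 and 0.67. The 0 h arrays differed by 1.01-fold, and the treated groups did not overlap at any time. The treated difference was 0.45, 1.03 and 1.25 at 12, 24 and 48 h. Limma called TBK1 higher in treated p53+/+ by 0.91 (SE 0.21, adjusted p = 0.0281), as it did 10.6% of 28951 probes, with 7.4% lower. The call was lost with median scaling (0.78, adjusted p = 0.0682), without scaling (0.31, adjusted p = 0.216), with time as a block (adjusted p = 0.0657), and without the 12, 24 or 48 h arrays (adjusted p = 0.0543, 0.254 and 0.131).

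IRF3, the factor that TBK1 phosphorylates, read 0.91, 1.64, 1.17 and 1.33 in p53-/-. For p53+/+ it was 1.45 at the array labelled 0 h, and then 1.42, 0.87 and 1.19. Groups overlapped, and a second IRF3 probe had p53-/- 0 h lowest at 0.77. The treated difference was −0.22 (SE 0.23, limma, adjusted p = 0.540), and without scaling it was −0.82 and passed (adjusted p = 0.0391). An array reads RNA and not the phosphorylation that activates TBK1 and IRF3.

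IRF5, a regulatory factor of interferon and inflammatory genes, read −0.32, −0.53, −0.37 and −0.18 in p53-/-. Against −0.69 for the array labelled p53+/+ 0 h, the treated p53+/+ arrays gave 1.79, 1.48 and 1.55. The 3 treated p53+/+ arrays stood above all 5 others with no overlap. The p53+/+ change was 5.61-, 4.53- and 4.73-fold, while the p53-/- log2 change was −0.21, −0.05 and 0.14. Treated p53+/+ exceeded treated p53-/- by 5.0-, 3.62- and 3.31-fold (technical SD of a log2 difference 0.08). Limma gave 1.97 (SE 0.19, adjusted p = 0.00195), a call lost without the 24 h arrays (adjusted p = 0.0725). The interaction of genotype and treatment was 2.35 (SE 0.38, limma, adjusted p = 0.0423), against 0.94% of 28947 probes called higher and 0.746% lower; it rests on the array labelled p53+/+ 0 h. The interaction was lost without scaling (adjusted p = 0.0937), with no filter on dim probes (adjusted p = 0.0504), with time as a block (adjusted p = 0.102), and without the 12, 24 or 48 h arrays (adjusted p = 0.114, 0.297 and 0.0860).

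IFNB1, whose promoter is printed above, was not well above background on any of the 8 arrays, with measured levels of −7.32 to −6.34. No order was read from these levels.

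**Figure D2:**
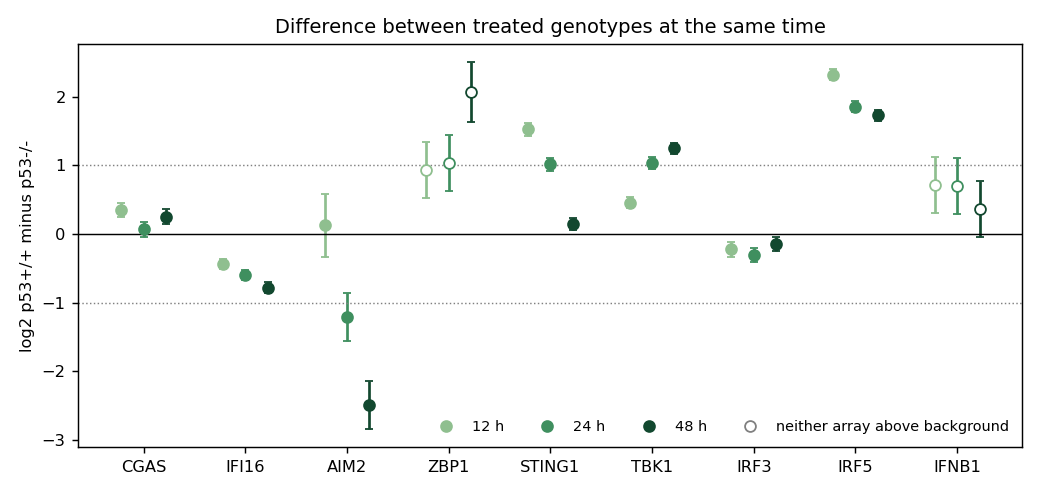
Log2 level of treated p53+/+ minus treated p53-/- (y axis) for each measured member (x axis) at 12, 24 and 48 h, 1 point per pair of arrays, open where neither array was above background, with bars of 1 technical SD. IRF5 lies between 1.73 and 2.32 at all 3 times, TBK1 from 0.45 to 1.25 and IFI16 from −0.78 to −0.44.

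Genes whose profile over the 8 arrays lay closest to a member's, by the root mean square difference of centred log2 levels among 13756 genes, were named without reading shared control from it. For CGAS they were PHLDA2 (0.143), RELB (0.167) and CNN3 (0.169). For STING1 they were APOL2 (0.196), WNT10A (0.198) and CTF1 (0.207). For TBK1 they were POLD4 (0.0711), TNRC18 (0.0808) and SCGB3A1 (0.0923). These were the closest profiles of the set, in log2 units, a distance not scaled to a member's own spread. That spread, the root mean square about the member's mean, was smallest for TBK1 (0.425) and largest for AIM2 (1.22) of these members. For IRF5 they were UBTD1 (0.174), OSBPL3 (0.178) and DUOXA1 (0.179). For AIM2 they lay farther off, LINC01270 (0.353) the nearest.

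Around the members, 98 of 114 genes in 8 pathway lists were tested. Between treated genotypes 6 were at least 2-fold higher in p53+/+ at all 3 times and 8 lower, or 6.12% and 8.16%, against 6.76% and 5.92% of all genes. Limma called 9 higher and 12 lower, or 9.18% and 12.24%, against 11.57% and 9.33% of all genes. The median difference of the lists was −0.02 and that of all genes 0.05. Without scaling 4 were higher and 15 lower, or 4.1% and 15.3%, against 3.4% and 13.6% of all genes. The shares of the lists lay near those of all genes.

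Among 18 tested sensors and effectors, 3 were higher and 1 lower, or 16.67% and 5.56%, against 6.76% and 5.92% of all genes. PYHIN1, of the IFI16 and AIM2 family, read −7.60, −7.65 and −7.77 on treated p53-/- arrays. On treated p53+/+ arrays it read −5.02, −2.22 and −2.87, and it was well above background on 2 arrays. At 12 h neither genotype was well above background for PYHIN1, so its call is by measured signal. PYCARD, the inflammasome adaptor that AIM2 engages, had log2 differences of −2.10, −1.5 and −1.42, lower in p53+/+ (limma adjusted p = 0.00782). IFIH1, the RNA sensor MDA5, was higher by 1.18, 1.26 and 1.08 (limma adjusted p = 0.0185). IL18, an inflammasome cytokine, was higher by 1.80, 1.16 and 1.11 but limma did not call it (adjusted p = 0.0622).

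Of 12 tested brakes, NLRX1, a mitochondrial protein that restrains STING, was higher by 2.19, 2.44 and 2.07. RNASEH2A, a subunit of the RNase that removes ribonucleotides from DNA, was lower, at −1.19, −1.93 and −4.04, though limma did not call it (adjusted p = 0.0611). INSIG1, 1 of 13 genes of STING traffic, was lower, at −1.95, −3.09 and −1.96. IFNLR1, the lambda interferon receptor chain, was lower, at −2.53, −2.15 and −1.94 on treated p53-/- arrays and −4.27, −5.16 and −4.81 on treated p53+/+ arrays. It was well above background on 6 of the 8 arrays but not on all treated arrays, and its call is by measured signal. Of the 4 tested interferon ligands, IFNA21 and IFNL1 were well above background on 1 array each, IFNE on 3 and IFNL2 on 6. By measured signal none of these 4 and none of the 12 other kinases and factors passed 2-fold at all 3 times. Of all genes, 6.76% were higher and 5.92% lower by that rule.

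Of 21 tested interferon-stimulated genes and chemokines, 2 were higher and 4 lower in treated p53+/+. BST2, which tethers virions, read −4.01, −3.39 and −2.15 on treated p53-/- arrays and 2.99, 3.51 and 3.33 on treated p53+/+ arrays. HERC5, the ligase that attaches ISG15, read −7.02, −5.34 and −4.44 on treated p53-/- arrays and −1.86, −0.57 and −1.61 on treated p53+/+ arrays, and was well above background on 4 arrays. These values place BST2 and HERC5 high in treated p53+/+. IFI44L was lower, at −3.35, −3.18 and −3.16. CMPK2, a nucleotide kinase well above background on 6 arrays, read −1.90, −1.45 and −1.93 on treated p53-/- arrays and −3.88, −4.33 and −4.81 on treated p53+/+ arrays. The remaining 2 lower genes, named after their values were seen, were IFI44 and RSAD2. For HERC5, CMPK2, IFI44 and RSAD2 some treated arrays were not well above background, and their call is by measured signal. The shares were 9.52% higher and 19.05% lower, against 6.76% and 5.92% of all genes. Without the p53+/+ 48 h array 5 were higher and 4 lower, or 23.8% and 19.0%, against 8.9% and 7.4% of all genes. In p53-/- 4 of the 21 rose at least 2-fold at all 3 times, or 19.0% against 3.2% of all genes. In that genotype 0 fell, against 2.04% of all genes, and the median change was 1.2 against 0.03. RSAD2, among the 4 that rose, was well above background on 2 arrays, so its rise is by measured signal. From the array labelled p53+/+ 0 h 7 of the 21 rose and 2 fell, or 33.3% against 9.5% of all genes and 9.5% against 6.4%. Of those that rose, MX1, HERC5 and OAS2 read −7.07, −6.87 and −5.50 on that array. Its lowest level well above background was −5.16, so these 3 rises are by measured signal. IFIT1, which also rose, read −4.93 there and was well above background on 7 arrays, all treated arrays among them. Whether the genotypes differed in these rises and falls was not tested.

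**Figure D3:**
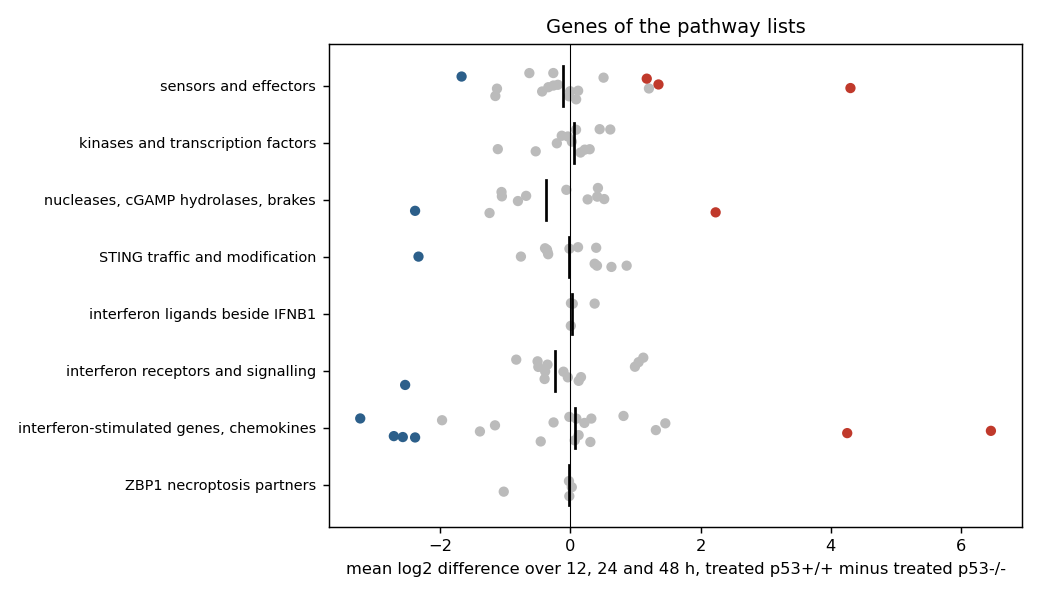
Mean log2 difference over 12, 24 and 48 h of treated p53+/+ minus treated p53-/- (x axis) for the tested genes of each pathway list (y axis), 1 point per gene, coloured where at least 2-fold higher (red) or lower (blue) at all 3 times, with the list median as a vertical bar. BST2 and HERC5 lie high and IFI44L, CMPK2 and IFNLR1 low.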

How the data were processed

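The deposited files were 8 single-colour Agilent scanner tables (Agilent Feature Extraction 10.7.3.1), 1 per condition; the authors deposited linear processed signal intensity per spot, background-subtracted by the scanner software. The deposited series table held the same values and was not used as a second source. Control spots and spots marked non-uniform or as outliers were left out, the log2 of each array's 75th percentile was subtracted and spots of a probe were averaged. Of 42405 probes, 27231 were named by accession to 20294 genes, and a gene took its probe with the highest mean. Bounds set a dim array at its lowest signal well above background. The technical SD came from probes printed in at least 10 spots.

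The size rule was 2-fold at all 3 times, without a test. Limma 3.58.1 (R 4.3.3, two-sided, Benjamini-Hochberg, threshold 0.05) compared the 3 treated times of each genotype, or fitted the interaction over 8 arrays; times stand in for replicates, so p-values measure movement over time and not between cultures. Scripts were tested on simulated data with the residual spread of these arrays. There 50 of 28947 probes were changed at each size, in all a smaller share than limma called between treated genotypes here (5201 of 28951). The Benjamini-Hochberg cutoff depends on that share, so rates of recovery hold for the simulation and may be low for these data. Between treated genotypes limma recovered 4%, 42% and 82% of probes changed by a log2 of 1, 2 and 4. For the interaction it recovered 0%, 0% and 24%. A call that limma did not make therefore does not show that the genotypes were alike. List genes were named where they passed 2-fold at all 3 times, at most 4 a list by the smallest of their differences. Members and lists were chosen with earlier results of these data known. The number of arrays limits precision. Alternatives were median, no and quantile scaling, normexp correction (offset 50), filters, fold sizes, a time block and leaving out each time. 1 further check of the genotype labels is not reported here.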

Additional observations from a re-analysis of the deposited data

Results flagged for a closer look

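TBK1 and IRF3 had log2 changes of opposite sign in the 2 genotypes at every time, with 75th percentile scaling. For TBK1 the log2 change from the array labelled p53+/+ 0 h was 0.33, 0.66 and 0.78 at 12, 24 and 48 h, and from p53-/- 0 h it was −0.11, −0.36 and −0.45. The test of that difference, limma's interaction, did not pass (adjusted p = 0.333). For IRF3 the changes were −0.029, −0.58 and −0.26 in p53+/+ and 0.73, 0.26 and 0.42 in p53-/-, and the interaction did not pass either (adjusted p = 0.452). The IRF3 value at 12 h lay within its technical SD of 0.107, and it was 0.0602 with quantile normalization and 0.003 with the mean of all probes. Without scaling TBK1 had the same sign in both genotypes at 12 h (0.0132 in p53+/+ and 0.233 in p53-/-) and at 24 h (0.34 and 0.0141). Measured from p53-/- 0 h instead, the treated p53+/+ arrays gave 0.34, 0.67 and 0.80 for TBK1 and 0.51, −0.04 and 0.28 for IRF3, so the opposite directions of IRF3 depended on the array labelled p53+/+ 0 h. For IRF5 the interaction itself passed, at 2.35.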

How the results depend on the processing

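IRF5 was the member at least 2-fold higher in treated p53+/+ at all 3 times. The number was 0 without scaling, 3 (STING1, TBK1 and IRF5) when 2 of 3 times sufficed, with 1 lower (AIM2), and 2 (STING1 and IRF5) without the p53+/+ 48 h array, an alternative chosen after seeing the data. The 2 members that rose in p53-/- became 1 (CGAS) with normexp correction, with a signal floor or with both arrays required well above background, and 0 at 3-fold. Limma's 2 calls between treated genotypes became 1 (IRF5) with median scaling and 1 with the time block, and 5 with no filter on dim probes (IFI16, IFNB1, IRF5, TBK1 and ZBP1). They became 3 without scaling (IFI16, IRF3 and IRF5, with TBK1 lost), and 3 (IFI16, IRF5 and TBK1) with normexp correction, with a signal floor or with all 8 arrays required above background. Leaving out each time gave 0 to 1. The 1 interaction call became 2 (CGAS and IRF5) with normexp correction, 0 with no filter, 0 with the time block and 0 to 0 when each time was left out. The limma difference of CGAS turned to −0.38 without scaling, and the interaction of IFI16 to 0.0195 without the 48 h arrays (−0.15 without the 12 h arrays). Beyond the settings named here, the cause was not tested. Without scaling the median change or difference of all genes moved to between −0.76 and 0.52. Over all probes, limma's treated calls numbered 5201 (3058 higher and 2143 lower), 9395 without scaling (1365 and 8030), and 2254 and 2683 with median scaling. The labels number no replicates, and the block on time point is the pairing that was fitted.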
